A study of Mus musculus with 36 samples.

Results

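The comparison described here set KSIC_806 cells labelled KO for Rreb1 against KSIC_806 cells labelled WT, both treated with TGFβ. KSIC_806 is a mouse pancreatic ductal adenocarcinoma (PDA) line, and Rreb1 encodes a zinc finger transcription factor. The members were the 4 RNA-seq libraries of TGFβ-treated PDA cells, 2 WT and 2 KO, of 36 samples in the series, and all 13226 of 18256 genes with a deposited normalised read count of 10 or more in 2 or more PDA libraries (8 in all). Cells of all groups were grown in DMEM with 10% FBS. TGFβ was given at 100 pM for 1.5 h. The other 4 PDA libraries, 2 WT and 2 KO, came from cells held for 6 h in 2.5 µM SB505124, which blocks the kinase of the type I TGFβ receptor. They served to measure the spread and to show which KO against WT differences were also present with the receptor inhibited. The 2 treatments differed in agent and in duration, and these cannot be told apart. The labels do not say how the KO cells were made, how many clones they represent or whether the libraries of a group came from separate cultures. A difference between the labels therefore cannot be told apart from any other difference between the lines, and p-values reflect the spread of these libraries alone, which may be technical. Each PDA title also holds the mark S4, left unexplained by the labels.

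TGFβ binds a pair of serine/threonine kinase receptors, which phosphorylate SMAD2 and SMAD3. These join SMAD4, enter the nucleus and act on target genes together with other transcription factors. In carcinoma cells the best known outputs are feedback inhibitors such as Smad7, transcription factors of the epithelial-mesenchymal transition (EMT) such as Snai1, and secreted matrix and fibrosis factors. RREB1 binds RAS-responsive elements and is a target of the RAS and MAP kinase cascade, which is why its part in the TGFβ response of RAS-driven pancreatic cancer cells is of interest.

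The 4 TGFβ libraries held 38728354 to 43636190 recovered reads, and of the SB505124 libraries KO replicate 1 was the shallowest of the 8 at 20410770 reads. Replicates were not equally alike. Over 9891 genes with a mean of at least 200, the SD of the difference between replicates was 0.0765 on the log2 scale in WT under TGFβ and 0.248 in KO under TGFβ. Under SB505124 it was 0.28 in WT, the widest of the 4 groups, and 0.122 in KO, and all 4 groups set the spread used in the tests. The replicate difference of KO under TGFβ ran against that of WT under SB505124 across these genes (Pearson r = -0.905, a description across genes), and it moved with gene length. Over the 2344 genes with the longest genomic span, the median deviation from the mean over 8 libraries was 0.0332 in KO TGFβ replicate 1 and 0.107 in replicate 2. Over the 2346 genes with the shortest span it was -0.0021 and -0.117. In WT SB505124 replicates 1 and 2 it was -0.133 and -0.229 for the longest genes and 0.0912 and 0.215 for the shortest. The median KO minus WT difference also ran with span, from -0.0462 for the shortest to 0.0372 for the longest genes under TGFβ and from -0.175 to 0.288 under SB505124, and the difference between treatments from 0.158 to -0.216. The part of span in the counts below was not tested. Counts that lead the results are therefore given also without each of these libraries.

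Rreb1 itself (chromosome 13, 37778382 to 37952005, GRCm38.p6) was counted at 4293 and 4212 in WT and 2886 and 2560.4 in KO. Both KO libraries lay below both WT libraries, with a log2 difference of -0.65 ± 0.08 (SE, limma adjusted p = 0.000364). With the receptor inhibited the order was the opposite, with 1458 and 1501 in WT and 2164 and 2195 in KO, and the difference between the treatments was -1.20 (adjusted p = 0.000933). With the medians of the chromosomes set equal, as described at the end, the TGFβ difference was -0.30 (adjusted p = 0.0604) and no longer passed. A read count over the whole gene does not tell whether a protein is made, so it does not check the KO label.

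Under TGFβ, 5316 of the 13226 genes (40.2%) differed between KO and WT at a limma adjusted p below 0.05. Of all genes tested, 2808 (21.2%) were higher in KO and 2508 (19.0%) were lower. The median difference over all genes was -0.0161 on the log2 scale. In 9721 genes (73.5%) the 2 KO libraries did not overlap the 2 WT libraries. Among called genes, 1024 were over 2-fold higher and 991 over 2-fold lower, and 58 were over 32-fold higher and 85 over 32-fold lower, on the log2(value + 1) scale. Leaving out KO TGFβ replicate 1 gave 4952 called genes and leaving out replicate 2 gave 4284. Leaving out WT TGFβ replicate 1 or 2 gave 3212 or 3266. Rescaling every library to the same total moved the median by -0.0827 and gave 2360 genes higher and 3305 lower.

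**Figure D1:**
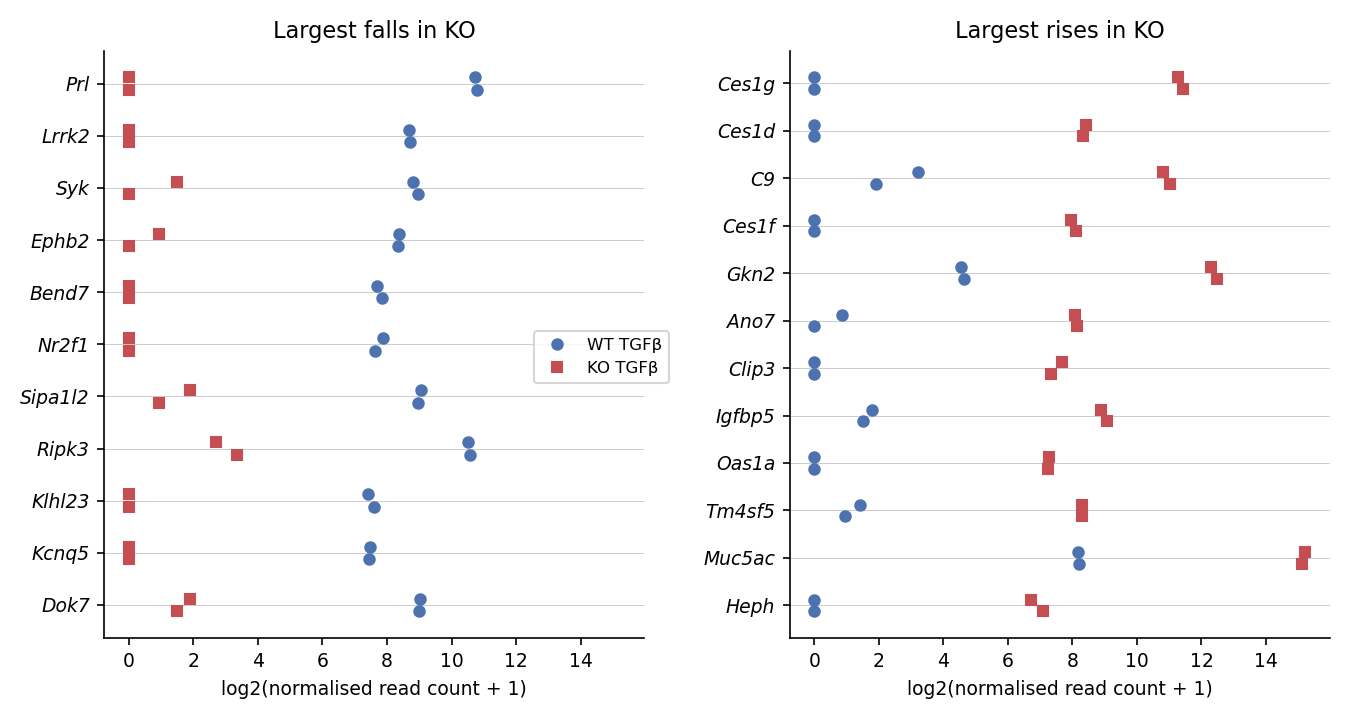
Normalised read counts, on a log2(value + 1) axis, of 11 of the 12 genes with the largest fall and of the 12 with the largest rise in KO against WT under TGFβ. Each point is 1 library, 2 WT and 2 KO. Prl lies at 1702 and 1787 in WT and at 0 in KO, Ces1g at 0 in WT and at 2491 and 2756 in KO, and the 2 groups do not overlap in any of the 23 genes shown because the choice of genes required it.

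The largest falls were near-complete losses of transcripts. Prl, which encodes the pituitary hormone prolactin, was counted at 1702 and 1787 in WT and 0 and 0 in KO. No read was seen in KO, so the fall was at least 1283-fold against the floor of 3 counts over the group. Lrrk2, a large kinase gene known from inherited Parkinson disease, was counted at 412 and 417 in WT and 0 and 0 in KO, a fall of at least 305-fold. Nr2f1, an orphan nuclear receptor gene, stood at 233 and 196 in WT and 0 and 0 in KO, at least 158-fold lower in KO. Ripk3, the kinase of necroptosis, fell from 1454 and 1532 in WT to 5.44 and 9.09 in KO (206-fold). Syk, a tyrosine kinase gene best known in blood cells, had 451 and 492 in WT and 1.81 and 0 in KO. Ephb2, an ephrin receptor gene, had 329 and 321 in WT and 0.906 and 0 in KO. Bend7, Sipa1l2, Klhl23, Kcnq5 and Dok7 were also among the 12, and their log2 differences ran from -7.76 to -7.31. Each of these 11 losses was past the test because the choice of genes required it. Each of these genes was also called lower in KO with the receptor inhibited.

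The largest rises were led by carboxylesterase genes, whose enzymes hydrolyse esters and drugs in liver and gut. Ces1g was listed at 0 in both WT libraries and at 2491 and 2756 in KO, at least 2018-fold higher. Ces1d stood at 0 and 0 in WT and 343 and 320 in KO and Ces1f at 0 and 0 in WT and 247 and 274 in KO. Of 16 carboxylesterase genes listed 10 were tested, and all 10 rose, with a median log2 difference of 3.71. With a filter of 50 the 7 genes left all rose. A gene at 0 in both WT libraries could not fall and passed the filter through other libraries, so these counts are a description. Under SB505124 9 of the 10 were called higher, where 28.9% of all genes were called higher and 27.2% lower. Ces2g, a member of the second subfamily, was counted at 343 and 306 in WT and 5714 and 6291 in KO. Ces1 genes lie side by side on chromosome 8 and are near-identical in places, so the way reads were shared between them is uncertain. C9, the pore-forming end component of complement, rose from 8.20 and 2.78 in WT to 1790 and 2100.3 in KO (355-fold). Gkn2, a gastrokine of the stomach lining, rose from 22.1 and 24.1 to 5024 and 5714 (232-fold). Igfbp5, an insulin-like growth factor binding protein gene, rose from 2.46 and 1.85 to 473 and 539. Muc5ac, the gel-forming mucin of the gastric surface, had the highest read count of the 12, with no adjustment for gene length, at 289 and 293 in WT and 38051 and 35629 in KO (126-fold). Ano7, Clip3, Oas1a, Tm4sf5 and Heph made up the rest, with log2 differences from 6.89 to 7.67. In KO their values ran from 103 to 316 and in WT from 0 to 1.64. All 12 were also called higher in KO with the receptor inhibited.

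Promoters are shown for 4 genes that sat at these extremes or that the pathway is known to control: Snai1 and Prrx1, which fell, and Ces1g and Gkn2, which rose. Each run is the RefSeq (GRCm38.p6) window from 250 bases before to 50 after an annotated start, read 5′ to 3′ on the gene's strand. For Prrx1, on the minus strand, that start lies inside the gene, whose 5′ end is at 163315145. Capitals mark matches on either strand to CCACCCC, taken from the RAS-responsive element, CAGAC, the SMAD box, GGCGCC, a GC-rich SMAD motif, or TGANTCA, the AP-1 motif. Matches may overlap. Of the 32851 windows of this length in the RefSeq table, 15.1% held CCACCCC, 49.6% CAGAC, 11.9% GGCGCC and 7.81% TGANTCA. A match is a description of letters and does not show binding.
Snai1 (chr2:167537945-167538244, plus strand): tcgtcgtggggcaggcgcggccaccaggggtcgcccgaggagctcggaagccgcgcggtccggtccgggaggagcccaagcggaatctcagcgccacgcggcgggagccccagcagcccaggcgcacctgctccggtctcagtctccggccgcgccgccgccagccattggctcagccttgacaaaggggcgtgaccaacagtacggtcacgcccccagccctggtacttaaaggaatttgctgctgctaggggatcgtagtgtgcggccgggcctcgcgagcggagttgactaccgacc
Prrx1 (chr1:163313601-163313900, minus strand): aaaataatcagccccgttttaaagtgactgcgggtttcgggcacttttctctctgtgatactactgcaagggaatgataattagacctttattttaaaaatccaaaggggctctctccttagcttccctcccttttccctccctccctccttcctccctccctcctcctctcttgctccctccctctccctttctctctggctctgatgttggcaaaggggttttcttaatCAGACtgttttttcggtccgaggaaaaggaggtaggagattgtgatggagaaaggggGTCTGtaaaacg
Ces1g (chr8:93337160-93337459, minus strand): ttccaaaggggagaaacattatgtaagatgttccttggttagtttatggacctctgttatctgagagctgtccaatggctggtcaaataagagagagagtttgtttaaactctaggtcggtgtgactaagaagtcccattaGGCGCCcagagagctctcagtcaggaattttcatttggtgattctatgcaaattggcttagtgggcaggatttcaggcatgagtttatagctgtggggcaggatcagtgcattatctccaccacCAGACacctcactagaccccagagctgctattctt
Gkn2 (chr6:87373115-87373414, plus strand): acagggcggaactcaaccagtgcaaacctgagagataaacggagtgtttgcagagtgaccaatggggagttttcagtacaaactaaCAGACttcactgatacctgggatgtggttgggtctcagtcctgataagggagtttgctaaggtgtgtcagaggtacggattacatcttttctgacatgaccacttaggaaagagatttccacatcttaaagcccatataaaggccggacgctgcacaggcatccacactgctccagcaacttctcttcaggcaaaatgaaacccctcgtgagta
The Snai1 window held no match, the Prrx1 window 2 CAGAC matches, the Ces1g window 1 CAGAC match and 1 GGCGCC match and the Gkn2 window 1 CAGAC match.

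TGFβ receptor and SMAD genes, the first tier of the pathway, had more falls than rises. Of 15 tested receptor and SMAD genes 6 fell and 3 rose, with a median of -0.13, beside 19.0% and 21.2% over all genes. Smad4, the common partner of the receptor-activated SMADs, was counted at 3378 and 3558 in WT and 1674 and 1646 in KO, with a log2 difference of -1.06 ± 0.07 (SE, limma adjusted p = 2.14e-05). Both KO libraries lay below both WT libraries. With the receptor inhibited Smad4 was higher in KO, at 2600 and 2441 in WT and 3379 and 3131 in KO, and the difference between the treatments was -1.43 (adjusted p = 0.000438). Smad5, a receptor-activated SMAD of the BMP branch, fell from 3025 and 3091 to 1367 and 1576. Tgfbr1, the type I receptor, fell from 3444 and 3234 to 2159 and 2399 and Smad3, one of its substrates, fell from 10214 and 10439 to 8264 and 8496. With WT TGFβ replicate 1 left out 0 genes of this list rose. Without WT TGFβ replicate 2 the Smad3 call was lost (adjusted p = 0.0542).

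Among genes that TGFβ and SMADs are known to act on directly, calls were mostly downward, and many genes were not called. Of 24 tested targets and feedback genes 9 were called lower and 5 higher with the receptor inhibited. The difference between the treatments passed the test in 7 with a lower and 2 with a higher KO effect under TGFβ. Under TGFβ 11 fell, 2 rose and 11 were not called, with a median of -0.32, beside 19.0% lower and 21.2% higher over all genes. Falls numbered 7 when WT TGFβ replicate 1 was left out. Smad7, the inhibitory SMAD that TGFβ induces, was not called, at 4509.8 and 4389 in WT and 3976 and 3722 in KO (log2 difference -0.21, limma adjusted p = 0.0997). It passed after rescaling to the same total (adjusted p = 0.0347) and after quantile normalization (adjusted p = 0.036), and without either WT SB505124 library (adjusted p = 0.0378 and 0.0379). Id2, an inhibitor of helix-loop-helix factors, fell from 2949 and 2772 to 1972 and 1817, and Tgfb1, the ligand itself, fell from 2144 and 2109 to 991 and 725. Cdkn2b, the p15 inhibitor of cell cycle kinases, went the other way, from 1063 and 1114 to 1826 and 1716. Its neighbour Cdkn2a was not called, at 129.5 and 146 in WT and 183 and 134 in KO.

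EMT transcription factors were lower in KO under TGFβ. Of 9 tested, 7 fell and none rose, with a median of -1.07 on the log2 scale, beside 19.0% lower and 21.2% higher over all genes. Under SB505124 3 of the 9 were called lower and 1 higher. Snai1, the Snail repressor, was counted at 1009 and 916 in WT and 164 and 96.4 in KO, so both KO libraries lay below both WT libraries (7.39-fold by group means, log2 difference of -2.92 ± 0.57 (SE, limma adjusted p = 0.00483)). With the receptor inhibited Snai1 was low in both genotypes, at 6.42 and 10.0 in WT and 2.01 and 10.1 in KO. Prrx1, a homeobox gene of mesenchymal cells, was counted at 93.4 and 75.0 in WT and 0 and 0 in KO. Twist2, a helix-loop-helix factor, fell from 122 and 137 to 8.16 and 10.9, and Zeb2, a zinc finger repressor of E-cadherin, fell from 643 and 634 to 198 and 202. Snai2 (Slug), Twist1 and Zeb1 fell by smaller amounts, with log2 differences of -1.07, -0.49 and -0.36. The Zeb1 call was lost without either WT TGFβ library (adjusted p = 0.12 and 0.17), without KO TGFβ replicate 1 (adjusted p = 0.15) and without either KO SB505124 library (adjusted p = 0.0657 and 0.0657). Snai3 and Sox4 were not called, at 0.31 and -0.06. Prrx1, Twist1 and Twist2 were also called lower in KO with the receptor inhibited. Zeb2 and Snai2 were not called there, at -0.14 and 0.13, and the difference between the treatments passed the test for Zeb2 (-1.52, adjusted p = 0.000928) and for Snai2 (-1.20, adjusted p = 0.0169). The Snai2 difference was lost without either WT TGFβ library (adjusted p = 0.0841 and 0.06) or without KO SB505124 replicate 2 (adjusted p = 0.0718). For Snai1 it was -2.28 and did not pass (adjusted p = 0.0805).

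Secreted fibrogenic factors, the pathway's best known products, were mostly lower in KO. Of 19 tested 12 fell and 4 rose, with a median of -1.12, beside 12 lower and 3 higher with the receptor inhibited (median -0.58). Il11, an IL-6 family cytokine that drives fibroblast activation, fell from 1940.2 and 1859 in WT to 68.9 and 72.7 in KO. Lif, the leukaemia inhibitory factor of the same family, fell from 1661 and 1743 to 418 and 392. Fn1, fibronectin, fell from 25345 and 25856 to 9745 and 9527, a log2 difference of -1.41 ± 0.06 (SE, limma adjusted p = 1.68e-06). Lif was not called with the receptor inhibited (0.08, adjusted p = 0.493), and its difference between the treatments was -2.15 (adjusted p = 0.000363). For Il11 the difference between the treatments was -2.51 (adjusted p = 0.00156). Has2, which makes hyaluronan, the matrix polysaccharide, was counted at 1523 and 1604 in WT and 111 and 124 in KO, with a log2 difference of -3.72 ± 0.34 (SE, limma adjusted p = 0.000103). It was also called lower in KO with the receptor inhibited (-2.13, limma adjusted p = 0.00137). Its difference between the treatments was -1.59 and did not pass (adjusted p = 0.0537). Under TGFβ 2 of 10 hyaluronan genes rose and 3 fell, with a median of 0.07 that changed sign under 2 of the 18 alternatives. Has3 fell from 3916 and 4054 to 1340.4 and 1534, while Cemip, a hyaluronan-degrading protein gene, rose from 117 and 114 to 1054 and 1113 and Hyal1, a hyaluronidase gene, rose from 558 and 586 to 939 and 872.

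**Figure D2:**
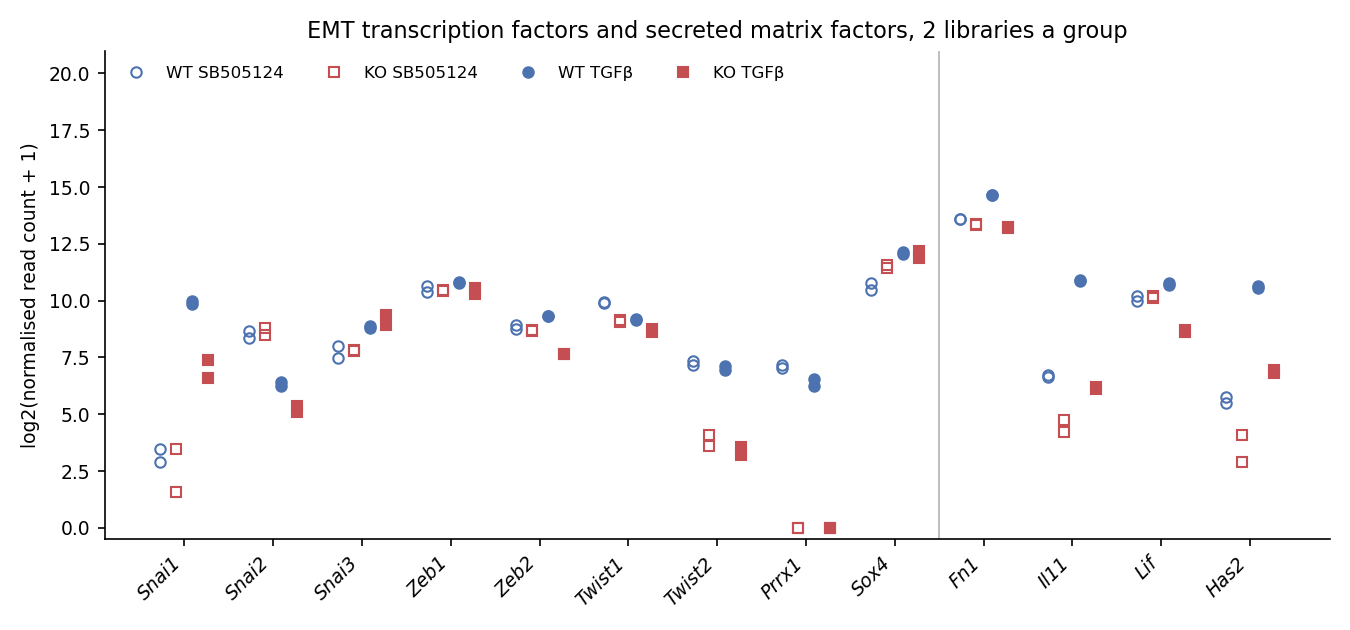
Normalised read counts, on a log2(value + 1) axis, of the EMT factors, of the secreted factors Fn1, Il11 and Lif and of Has2, in the 8 PDA libraries. Each point is 1 library, with TGFβ and SB505124 side by side for WT and KO. Snai1 stands at 1009 and 916 in WT under TGFβ and at 164 and 96.4 in KO, and with the receptor inhibited at 6.42 and 10.0 in WT and 2.01 and 10.1 in KO.

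Collagen genes were mostly lower in KO, and laminin genes had more rises than falls. Of 22 tested collagen chains 14 fell and 6 rose, with a median of -1.07. Leaving out KO TGFβ replicate 1 gave 3 higher and 13 lower, and leaving out replicate 2 gave 6 and 10. With either WT TGFβ library left out it was 3 higher and 9 lower, and with a filter of 50 the median of the 16 chains left was -0.59, with 9 lower. Col7a1, the anchoring fibril collagen of basement membranes, fell from 6539 and 5998 to 116 and 101. Col6a1 fell from 723 and 731 to 223 and 185 and Col27a1 from 3580.3 and 3460.2 to 972 and 756. Col4a4, a basement membrane collagen, rose from 7.38 and 7.41 to 326 and 225. Laminins, the other class of basement membrane proteins, had 4 of 9 tested genes higher and 1 lower, with a median of 0.46. Only 2 were higher with either WT TGFβ library left out, or with the chromosome medians set equal. With the receptor inhibited 8 of the 9 laminins were called higher and 1 lower, with a median of 1.29. Under TGFβ Lama3, a chain of laminin-332, rose from 405 and 406 to 2596 and 2828. Lamb1 was the one laminin that fell, from 8208 and 8349 to 5656 and 5528. Of 17 integrin subunits 5 fell and 2 rose, and 3 fell with either WT TGFβ library left out. Integrin subunits had a called share of 41.2%, near the 40.2% of all genes. Itga5, the fibronectin receptor subunit, fell from 10573 and 10688 to 6056 and 5438, and Itga2, a collagen receptor subunit, fell from 11016 and 11106 to 5513 and 6541. Both were called higher in KO with the receptor inhibited, at 0.80 and 1.18 on the log2 scale, and both passed the test of the difference. Itgb3 rose, from 2176 and 2233 to 3263 and 3496. Of 15 tested proteases and inhibitors 4 rose and 7 fell, and 2 rose when WT TGFβ replicate 2 was left out. Mmp15 and Timp3, a membrane metalloproteinase gene and a metalloproteinase inhibitor gene, rose from 601 and 585 to 6844 and 5567 and from 1068 and 1036 to 7265 and 7947. Mmp14, another membrane metalloproteinase gene, fell from 4252 and 4160 to 2322 and 2120.3.

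Epithelial identity genes moved in both directions. Of 27 junction and keratin genes 10 rose and 7 fell, with a median of 0.17, and 6 rose with either WT TGFβ library left out. Cdh1, the epithelial cadherin, rose from 21733 and 21770 to 32047 and 32898 and F11r, a tight junction protein gene, rose from 8059.8 and 8442 to 14002 and 14725. Dsc2, a desmosomal cadherin gene, fell from 528 and 512 to 12.7 and 17.3, and Cldn4, a claudin gene, fell from 844 and 793 to 92.4 and 72.7. Of 11 mesenchymal markers 3 rose and 5 fell, and 3 fell with either WT TGFβ library or KO TGFβ replicate 2 left out, or after quantile normalization. S100a4, a calcium-binding protein gene, rose from 5884 and 5792 to 24113 and 28103 while Sparc, a matrix glycoprotein gene, fell from 276 and 265 to 63.4 and 71.8. Epithelial markers stayed abundant in every TGFβ library: the summed level of 8 PDA epithelial genes ran from 447574 to 620784. Of those genes 5 rose and 1 fell, or 2 rose with either WT TGFβ library left out. Among those that rose were Muc1, from 3907 and 3831 to 12073 and 11533, and Krt7, from 56464 and 55037 to 93142 and 73855. The Krt7 call was lost without either WT TGFβ library (adjusted p = 0.0608 and 0.0732).

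Gastric-type genes were mostly higher in KO. Of 19 tested mucins, gastrokines, trefoil factors and partners 15 rose and 3 fell, with a median of 1.61, beside 21.2% and 19.0% over all genes. Gkn1, a gastrokine, rose from 51.6 and 56.5 to 2117 and 2197 and Tff3, a trefoil peptide gene, rose from 157 and 166 to 3893 and 3504. Under SB505124 13 were called higher in KO and 2 lower. In these bulk samples a change in the share of cells of a type and a change in RNA per cell cannot be told apart. Of 13 ductal and progenitor genes 6 rose and 3 fell, with a median of 0.01 that changed sign under 3 alternatives. Sox9, the ductal progenitor factor, fell from 452 and 424 to 40.8 and 25.5 (log2 difference of -3.72 ± 0.25 (SE, limma adjusted p = 2.09e-05)). Gata6 and Gata4, factors of the pancreatic and gastric epithelium, rose from 940.2 and 880.3 to 1949 and 1720.2 and from 1898 and 1828 to 3094 and 2989, and Cftr, the chloride channel of duct cells, rose from 834 and 868 to 2929 and 3735. The 3 tested Hox genes all rose, and with a filter of 50 the 1 gene left did so. Hoxa10 went from 26.2 and 31.5 to 263 and 205. The prolactin family had 5 of 6 tested genes lower and none higher, and Prl2c2 fell from 21687 and 22409 to 2456 and 2881. The Prl2c genes are near-identical, so their separate values are uncertain.

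Markers of other cell types were low in these libraries. Of 10 fibroblast markers listed, 3 were tested, Col1a2, Pdgfrb and Thy1 were listed at 0 in all 4 TGFβ libraries, and the summed level was 389.7 to 435. Leukocyte markers summed to 130 to 146, with Cd3e at 0, and the endocrine markers to 0.906 to 2.78. Endothelial markers summed to 766 and 793 in WT and 1392 and 1336 in KO, where Cdh5, the endothelial cadherin, rose from 55.7 and 50.9 to 997 and 920.1 and Flt1 fell from 702 and 734 to 353 and 382. Acinar markers summed to 154 and 194 in WT and 613 and 566 in KO, with Cela1, an elastase-like gene, at 141 and 174 in WT and 593 and 546 in KO. The part of such cells in the groups above was not tested.

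Interleukins, IL-6 family cytokines and their feedback genes were mostly lower in KO under TGFβ. Of 19 tested 10 fell and 3 rose, with a median of -0.80, whereas under SB505124 7 were higher and 2 lower. Rises under TGFβ numbered 5 with either WT SB505124 library left out or by DESeq2. The difference between the treatments passed the test in 13 genes with a lower and 2 with a higher KO effect under TGFβ. Il1rn, the interleukin 1 receptor antagonist, fell from 5642 and 5831 to 1935 and 2173. Socs2, a feedback inhibitor of cytokine signals, fell from 325 and 313 to 75.2 and 95.5. Cish, a further member of that inhibitor family, fell from 466 and 432 to 55.3 and 44.6. Of 16 NF-κB feedback and target genes 10 fell and 3 rose, with a median of -0.77. Traf1, a signalling adaptor, fell from 448 and 429.5 to 97.0 and 89.1, Birc3, an apoptosis inhibitor, from 352 and 357 to 73.4 and 90.9, and Tnfaip2 from 6779 and 6809 to 3645 and 3390.5. Icam1, an adhesion molecule, rose from 1072 and 1058 to 2102 and 1956. Of 13 chemokines and colony-stimulating factors 5 rose and 3 fell. Csf1, the macrophage growth factor, fell from 4983 and 5032 to 1489 and 1386, and Cxcl5, a neutrophil chemokine, rose from 202 and 168 to 868 and 868. Interferon-stimulated genes had 11 of 23 higher and 1 lower, with a median of 0.58, and 7 higher when WT TGFβ replicate 2 was left out. Oas1a, an antiviral nucleotide synthase, stood at 0 and 0 in WT and 154 and 150 in KO and Mx1, an antiviral GTPase, at 9.02 and 11.1 in WT and 181 and 221 in KO. The Oas1 genes are near-identical copies. Antigen presentation genes had a called share of 40.0%, near the 40.2% of all genes. Of 10 antigen presentation genes 2 rose and 2 fell. The falls were no longer called without either WT TGFβ library. Fewer rises were called without WT TGFβ replicate 1 or without KO TGFβ replicate 1.

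**Figure D3:**
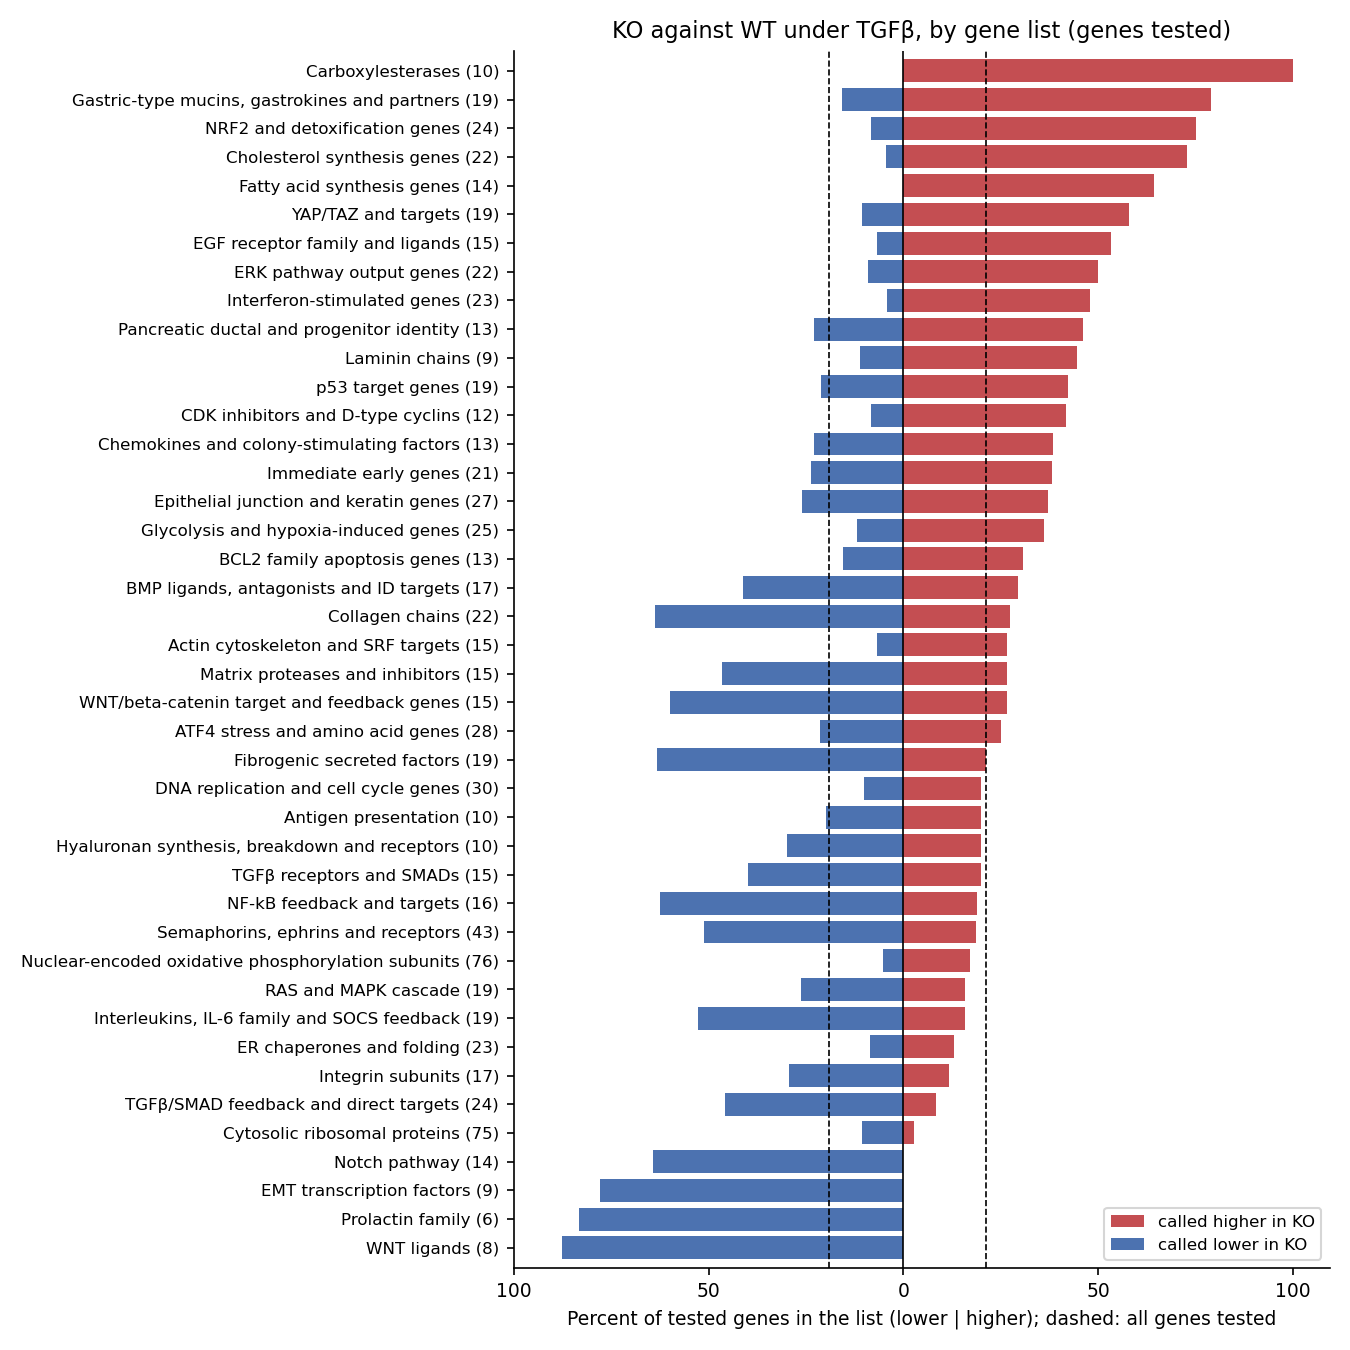
Percent of tested members called, for each gene list with at least 5 tested genes other than marker lists, higher (right) and lower (left) in KO against WT under TGFβ by limma. The vertical dashed lines mark the percent of all genes tested, 21.2% higher and 19.0% lower. Among the lists drawn, carboxylesterase and gastric-type genes extend farthest to the right, and the WNT ligand and prolactin family genes extend to the left.

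Growth factor signalling genes rose in part. Of 15 EGF receptor family and ligand genes 8 rose and 1 fell, and the one that fell was Egfr itself, from 1658 and 1668 to 39.0 and 42.7 (log2 difference of -5.31 ± 0.23 (SE, limma adjusted p = 2.47e-06)). Erbb3, a receptor of the family, rose from 621 and 597 to 1874 and 1877. Areg, amphiregulin, and Nrg1, a neuregulin, rose from 2366 and 2408 to 5259 and 6051 and from 1294 and 1345 to 2297 and 2449. ERK pathway output genes had 11 of 22 higher and 2 lower, with a median of 0.31, and 6 higher with either WT TGFβ library left out. Dusp6, the phosphatase that switches off ERK, rose from 2042 and 2113 to 5364 and 5309.9, and Etv1, an ETS factor gene, fell from 17.2 and 25.0 to 0 and 0. With the receptor inhibited 15 of the 22 ERK output genes were called higher and 3 lower. Of 19 genes of the RAS and MAP kinase cascade itself 3 rose and 5 fell. With either WT TGFβ library left out 1 fell, without KO TGFβ replicate 2 3 fell, and with the chromosome medians set equal 1 rose. The called share of the cascade genes was 42.1%, near the 40.2% of all genes. Mras, a RAS-related GTPase, rose from 695 and 654 to 1462 and 1347. Of 21 immediate early genes 8 rose and 5 fell, with a median of -0.02 that changed sign under 6 alternatives. Under SB505124 this list had 14 genes called higher and 0 lower, with a median of 0.82. The difference between the treatments passed the test in 10 of its genes, each with a lower KO effect under TGFβ. Arc, a gene of synaptic plasticity, fell from 781 and 802 to 17.2 and 10.9, and Fosb, an AP-1 subunit, fell from 790.2 and 766 to 362 and 314. Btg2 and Klf4 rose, from 591 and 661 to 1881 and 1871 and from 1797 and 1731 to 4237 and 3595.

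WNT ligand and Notch genes were mostly lower in KO. Of 8 tested WNT ligands 7 fell and none rose, with a median of -2.27, beside 5 lower and 0 higher with the receptor inhibited. Wnt7b, a ligand gene of epithelia, fell from 7961 and 7663 to 1176 and 923. Wnt5a, Wnt10a and Wnt4 fell from 342 and 284 to 42.6 and 36.4, from 206 and 204 to 25.4 and 21.8 and from 75.4 and 87.9 to 11.8 and 4.55. Of 15 β-catenin target and feedback genes 9 fell and 4 rose (median -1.03), beside 10 lower, 5 higher with the receptor inhibited (median -1.72). With a filter of 50, which left 11 genes, 5 fell and 4 rose, with a median of -0.0295. Axin2, a feedback inhibitor and widely used readout, had 40.2 and 40.7 in WT and 0 and 0 in KO, and Tcf7, a T cell factor gene, fell from 563 and 586 to 93.3 and 90.0. Of 14 Notch pathway genes 9 fell and 0 rose, beside 7 lower and 3 higher with the receptor inhibited. The ligands Dll1 and Dll4 fell from 1015 and 954 to 139.6 and 141 and from 419 and 469 to 36.3 and 31.8. Nrarp, a Notch-induced feedback gene, fell from 196 and 206 to 10.9 and 5.46, and the receptor gene Notch2 fell from 6232 and 6370.5 to 3512 and 3235. Of 43 semaphorins, ephrins and receptors 22 fell and 8 rose, with a median of -0.53, and 14 fell and 5 rose with either WT TGFβ library left out. Sema3e fell from 7527 and 7316 to 2994 and 3201 and Efnb2, ephrin B2, rose from 3642 and 3591 to 8890 and 9486. BMP ligands, antagonists and ID targets had 5 of 17 higher and 7 lower, or 3 higher without WT TGFβ replicate 2 or KO TGFβ replicate 2. Fst, follistatin, rose from 602 and 554 to 2021 and 2202, while Bmp2, a ligand, and Inhba, the subunit of activin A, fell from 388 and 339 to 50.8 and 46.4 and from 1143 and 1129 to 368 and 419. YAP and TAZ targets had 11 of 19 higher and 2 lower, with a median of 0.27, and 4 lower after rescaling to the same total. Ankrd1 rose from 1716 and 1638 to 3574 and 3851 and Amotl1 fell from 4022 and 4041 to 1311 and 1387.

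Lipid and detoxification genes were mostly higher in KO. Of 22 cholesterol synthesis genes 16 rose and 1 fell, with a median of 0.67, beside 6 higher and 5 lower with the receptor inhibited. Lss, lanosterol synthase, rose from 1825 and 1830.1 to 4167 and 4001. Hsd17b7, a later enzyme of the pathway, rose from 1683 and 1613 to 3489 and 3842. The treatments differed in 10 of these genes, each with a higher KO effect under TGFβ. Of 14 fatty acid synthesis genes 9 rose and none fell. Scd1, a fatty acid desaturase, rose from 4384 and 4496 to 17347 and 18864 and Elovl6, an elongase, rose from 2701 and 2735 to 5492 and 6529. NRF2 and detoxification genes had 18 of 24 higher and 2 lower, with a median of 0.77. Gpx2, a glutathione peroxidase of the gut, had 1.64 and 3.70 in WT and 374 and 371 in KO, and Nqo1, a quinone reductase, rose from 1081 and 1158 to 2694 and 3091. Gsta3 and Gstm1, glutathione transferase genes with close copies in the genome, rose from 11.5 and 10.2 to 312 and 339 and from 686 and 753 to 2305 and 2246. Of 25 glycolysis and hypoxia-induced genes 9 rose and 3 fell, a called share of 48.0%, not far from the 40.2% of all genes. Pfkp, a phosphofructokinase, rose from 968 and 1005 to 2916 and 2957, while Vegfa, the vascular growth factor, fell from 12133 and 11918 to 3672 and 3225.

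Among cell cycle, stress and housekeeping lists, those of DNA replication, ER chaperones, oxidative phosphorylation and ribosomal proteins had smaller called shares than the 40.2% of all genes. Those of the BCL2 family (46.2%) and of ATF4 stress and amino acid genes (46.4%) lay a little above it. DNA replication and cell cycle genes had 6 of 30 higher and 3 lower, and 3 to 10 higher and 0 to 5 lower over the alternatives, with the fewest (3 and 0) when either WT TGFβ library was left out. CDK inhibitors and D-type cyclins had 5 of 12 higher and 1 lower, led by Ccnd2, a D-type cyclin, from 7756 and 8149 to 28458 and 31058. Over the alternatives 2 to 5 were higher, the fewest when either WT TGFβ library was left out, and 1 to 3 lower. Of 19 p53 targets 8 rose (fewer with either WT TGFβ library left out) and 4 fell. Of 13 BCL2 family genes 4 rose and 2 fell. These BCL2 family falls were no longer called without either WT TGFβ library or without KO TGFβ replicate 2. Of 15 actin cytoskeleton and SRF target genes 4 rose and 1 fell, and 0, 1 and 1 rose when WT TGFβ replicate 1, WT TGFβ replicate 2 or KO TGFβ replicate 1 was left out. Of 23 ER chaperones 3 rose and 2 fell under TGFβ, whereas 18 were higher and none lower with the receptor inhibited. Over the alternatives 1 to 3 rose and 0 to 4 fell under TGFβ, with 1 and 0 when either WT TGFβ library was left out. Of 28 ATF4 stress and amino acid genes 7 rose and 6 fell, beside 22 higher and 1 lower with the receptor inhibited. Herpud1, an ER stress gene, was 3991 and 4091 in WT and 5260.2 and 5043 in KO under TGFβ, against 8934 and 9538 in WT and 42719.9 and 43724 in KO under SB505124. Its TGFβ call was lost with the chromosome medians set equal (adjusted p = 0.062). Of 76 oxidative phosphorylation genes 13 rose and 4 fell under TGFβ, and under SB505124 none rose and 43 fell. Leaving out WT TGFβ replicate 1 gave 3 rises and 1 fall, replicate 2 gave 6 and 1, and falls were 1 to 8 over the alternatives. Of 75 cytosolic ribosomal protein genes 2 rose and 8 fell. Falls ranged over 1 to 28 in the alternatives: 2 and 1 without WT TGFβ replicate 1 and 2, 19 and 5 without KO TGFβ replicate 1 and 2, 14 without either WT SB505124 library, 21 after rescaling to the same total and 28 after quantile normalization.

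Most KO against WT differences seen under TGFβ were also seen with the receptor inhibited. The means of these 2 comparisons share no library, but the spread of all 8 libraries entered both tests, so their calls are not independent. There 56.2% of genes were called. Of the 5316 genes called under TGFβ, 3712 (69.8%) were called in the same direction, 298 (5.61%) in the opposite direction and 1306 (24.6%) were not called with the receptor inhibited. A difference past the threshold under 1 treatment alone does not show that the effects differed. The test of the difference itself passed for 21.8% of all genes, with 9.71% having a KO effect that was higher under TGFβ and 12.1% one that was lower. That count of 2886 genes fell to 764 or 827 when WT TGFβ replicate 1 or 2 was left out, to 940 or 1188 without KO SB505124 replicate 1 or 2, and to 1596 in a fit that blocked on replicate. Its split of 1284 higher and 1602 lower became 1869 and 1388 after rescaling to the same total and 1606 and 1405 after quantile normalization. Among the 1306 genes called under TGFβ alone, 473 passed it. These tests share all 8 libraries with both comparisons.

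**Figure D4:**
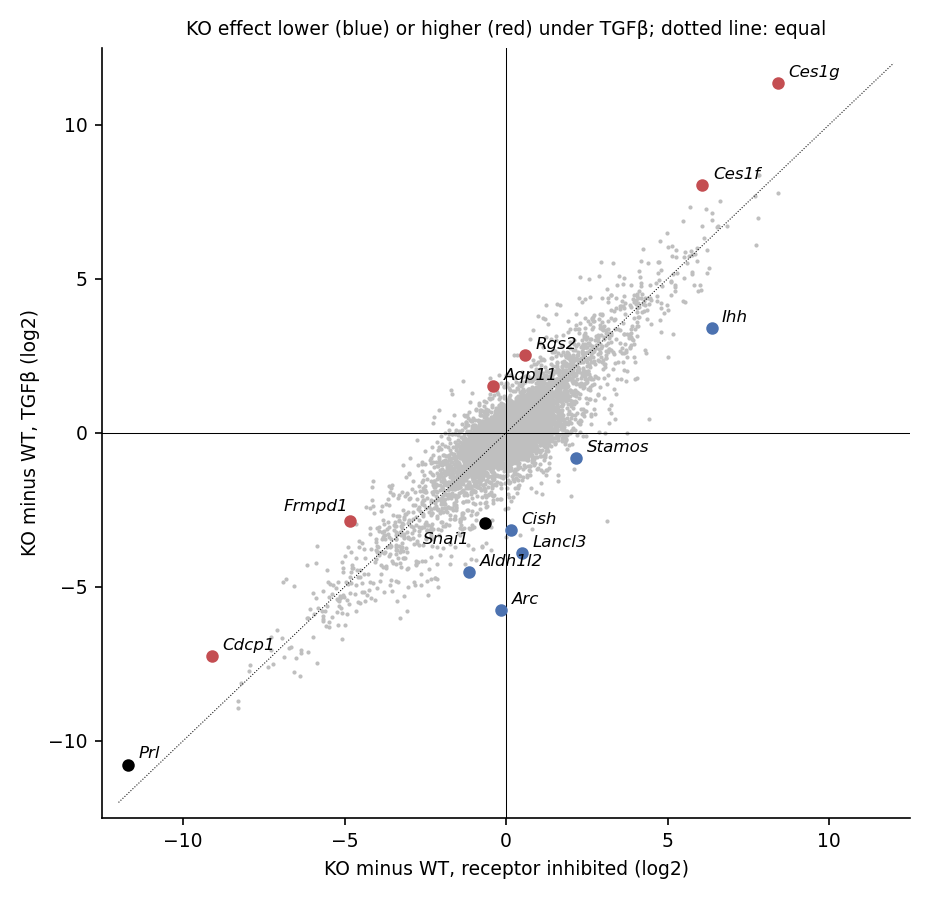
KO minus WT log2 differences of the 13226 genes with the receptor inhibited (x axis) and under TGFβ (y axis). Each grey point is 1 gene, and black points mark Prl and Snai1. Blue and red points mark the 6 largest differences between the treatments in each direction. These were chosen among genes called under TGFβ and past the test of the difference, with a mean of at least 50. Arc lies near 0 on the x axis and at -5.75 on the y axis, whereas Prl and Ces1g lie far from 0 on both axes.

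Arc had the largest difference between treatments among genes called under TGFβ with a mean of at least 50. With the receptor inhibited it was 13.8 and 16.4 in WT and 8.05 and 22.0 in KO. The KO effect was therefore -5.75 under TGFβ and -0.15 with the receptor inhibited, a difference of -5.60 (adjusted p = 0.00158). Lancl3, a lanthionine synthetase-like gene, fell from 325 and 298 to 19.9 and 20.0 under TGFβ and was higher in KO with the receptor inhibited, at 508 and 417 in WT and 688 and 607 in KO. Aldh1l2, a mitochondrial folate enzyme gene, fell from 111 and 118 to 4.53 and 3.64, and was 414 and 373 in WT and 215 and 147 in KO under SB505124. Cish, described above, was 21.1 and 34.7 in WT and 28.2 and 32.1 in KO under SB505124. Ihh, the Indian hedgehog ligand, rose under both treatments, from 134 and 118 to 1569.7 and 1118 under TGFβ, and was 8.26 and 6.38 in WT and 666 and 693 in KO under SB505124. Stamos fell from 63.1 and 69.4 to 41.7 and 32.7 and was 35.8 and 58.4 in WT and 209 and 209 in KO under SB505124. Its call under TGFβ was lost without either WT TGFβ library, without KO TGFβ replicate 2 and without either KO SB505124 library, with adjusted p from 0.0544 to 0.149. In the other direction, Ces1g and Ces1f rose more under TGFβ, by 2.93 and 1.95. The Ces1f difference did not pass on recovered reads with edgeR (adjusted p = 0.105) or DESeq2 (adjusted p = 0.155). Rgs2, a regulator of G protein signals, rose from 21.3 and 22.2 to 121 and 137, and was 188 and 174 in WT and 282 and 261 in KO under SB505124. Aqp11, an aquaporin gene, rose from 73.0 and 79.6 to 225 and 212, and was 107 and 86.6 in WT and 74.4 and 71.6 in KO under SB505124. Frmpd1 and Cdcp1, the second a cell surface protein gene, fell less under TGFβ than with the receptor inhibited, by 1.96 and 1.87. With a pseudocount of 5 the Cdcp1 difference was 0.29 (adjusted p = 0.301), and with DESeq2 it had an adjusted p of 0.0736.

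KO against WT differences also followed chromosomes. Among 10611 genes with a mean of at least 50 and a RefSeq position, the median was -0.00731 and 40.1% were called. On chromosome 13, which holds Rreb1, Prl, Syk and Nr2f1, the median was -0.36 over 381 genes, 200 of them called lower and 37 higher. The medians of KO TGFβ replicates 1 and 2 there, against the mean of WT, were -0.41 and -0.30. Windows of 15 Mb along chromosome 13 had medians from -0.25 to -0.57, so the shift was not confined to the region around Rreb1. Chromosomes 1, 6 and 8 had medians of 0.22, 0.23 and 0.21, and chromosome 13 of -0.42 with the receptor inhibited. With the chromosome medians set equal in each library, an alternative added after seeing the data, 5023 genes were called and 4434 of the 5316 remained called. The cause of the shifts was not tested.

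**Figure D5:**
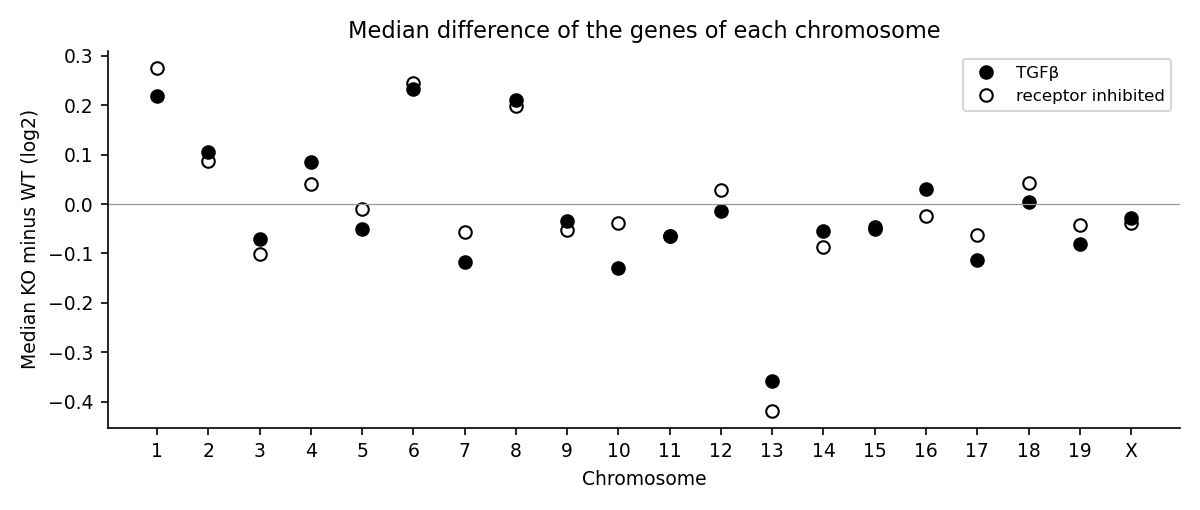
Median KO minus WT log2 difference of genes on each chromosome, under TGFβ (filled) and with the receptor inhibited (open). Chromosome 13 lies at -0.36 and -0.42, chromosomes 1, 6 and 8 lie at 0.198 or above, and the remaining chromosomes lie between -0.13 and 0.105.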

How the data were processed

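RNA-seq libraries of PDA cells were made, per the labels' protocols, with a TruSeq kit (RNA Sample Prep v2) that does not mark strand, so reads of overlapping and antisense genes cannot be told apart. The submitters' processing notes list Bowtie2, HOMER, HTSeq 0.6.1p1, FastQC 0.11.5, DESeq2 3.4 and the build mm10, without role or order. The authors deposited 1 signal per gene and library, a normalised read count. Dividing by the value of 1 read in each library gave whole reads for 100% of values (tolerance 0.001), 20410770 to 44504338 reads per library. Counting intervals and floors (3 counts a group) cover counting error only. Genes with at least 10 in 2 of 8 libraries were tested on log2(value + 1) with limma 3.58.1 (R 4.3.3, trend) over all 8 libraries in 4 groups, two-sided, with Benjamini-Hochberg adjustment over 13226 genes and a threshold of 0.05. Alternatives were edgeR 4.0.16 and DESeq2 1.42.0 on recovered reads, which called 5549 and 4710 genes under TGFβ, other scalings, filters and pseudocounts, a replicate block, and leaving out each library. Genes named are Rreb1, Snai1, Has2, Smad7, Smad4, Cdkn2a, the 12 largest called rises and 12 largest called falls with groups that do not overlap, the 6 largest called differences between treatments each way (means of at least 50), and up to 4 members per list by adjusted p, or all of lists of 10 or fewer. A few genes that this rule names are not reported here. The fit was tested on simulated data. The members and the 51 lists were chosen with earlier results of these data known. Gene positions and promoters came from RefSeq GRCm38.p6.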

Additional observations from a re-analysis of the deposited data

Results flagged for a closer look

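The KO against WT difference itself differed between TGFβ and SB505124 in 2886 genes by limma's test of the interaction (21.8% of genes tested). The values below are the KO minus WT log2 difference under TGFβ less that with the receptor inhibited, for the 20 genes for which this difference is described above as past that test. Among cytokine and signalling genes it was -5.60 for Arc, -3.30 for Cish, -2.51 for Il11 and -2.15 for Lif. For transcription factor and SMAD genes it was -1.52 for Zeb2, -1.43 for Smad4, -1.20 for Rreb1 and -1.20 for Snai2. For integrin subunits it was -2.06 for Itga2 and -1.69 for Itga5. It was -4.38 for Lancl3, -3.37 for Aldh1l2, -2.99 for Stamos and -2.97 for Ihh. In the opposite direction it was 2.93 for Ces1g, 1.96 for Frmpd1, 1.95 for Ces1f, 1.93 for Rgs2, 1.90 for Aqp11 and 1.87 for Cdcp1. The treatments differed in duration as well as in agent, so these cannot be told apart. With 2 libraries in each group, no group was large enough to be searched for an outlying sample.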

How the results depend on the processing

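Of the 149 genes named, 140 kept direction and side of the limma threshold under every alternative in which they were tested, and so did 17 of the 20 differences between treatments. Many of the named genes were chosen for large or clear differences in this same fit, so their calls were likely to hold. Of all 5316 calls under TGFβ, 83.4% stayed with the chromosome medians equalised, 84.8% with the replicate block and 85.0% with DESeq2. The calls of named genes that changed stand beside their results. Of genes not called, the Cdkn2a difference ran from -0.042 to 0.41 with 1 library left out, its sign turning without KO TGFβ replicate 1. That of Sox4 ran from -0.22 to 0.10, turning without KO TGFβ replicate 2, and was 0.29 with chromosome medians equalised. The cause was not tested. Leaving out 1 library in turn gave 3212 to 6148 called genes under TGFβ, 1806 to 3192 higher and 1406 to 2956 lower, with both minima from leaving out a WT TGFβ library. It gave 5512 to 7689 genes with the receptor inhibited and 764 to 3881 for the difference between treatments, where leaving out WT TGFβ replicate 1 or 2 gave 764 or 827 and KO SB505124 replicate 1 or 2 gave 940 or 1188. A lone sample is then assumed to vary like the other groups. Without a WT TGFβ library at least 99.3% of the remaining calls were among the 5316. The replicate block, with the replicate number as a term, gave 4522 genes under TGFβ and 1596 for the difference between treatments, and the calls of Zeb1 (limma adjusted p = 0.0677) and Stamos (adjusted p = 0.0501) were lost. Without a filter on low values Stamos had an adjusted p of 0.052. The labels give these numbers with only 2 pairs a comparison, the correlation of replicate differences between WT and KO under TGFβ was 0.0802 over all genes and 0.218 over genes with a mean of at least 200 (under SB505124 0.144 and 0.492), and nothing in the labels says that a number marks a shared culture or day. The other alternatives (pseudocount, filters, scaling, the 4 libraries alone, edgeR, DESeq2, chromosome medians equalised) gave 4710 to 5665 genes under TGFβ. Across alternatives, the EMT factors had 6 to 7 genes lower, the fibrogenic factors 11 to 12 lower, the gastric-type genes 13 to 15 higher and the WNT ligands 5 to 7 lower. The comparison of promoter motifs between called genes is void, because 9914 of 13226 genes (under 80%) had a promoter in the table. On simulated data for KO against WT under TGFβ with 13226 genes, 55.2% of 1.5-fold and 95.5% of 2-fold changes were recovered. Small changes can thus be missed at this replication. The simulation gave every gene and group the same dispersion (spread beyond counting error) and changed 67 genes at each of these folds. In the data the spread differed between groups and 40.2% of genes were called, so these rates need not hold here.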

Other observations

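Across all tested genes, 14 had a mean of at least 50 in WT under TGFβ and no read in either KO library, and 10 had the reverse pattern. These 2 sets were drawn after the values were seen, so they are a description. Among the 14, Thbd, thrombomodulin, an anticoagulant receptor, stood at 92.6 and 103 in WT and 0 and 0 in KO. Ahrr, the repressor of the aryl hydrocarbon receptor, stood at 73.8 and 62.9 in WT and 0 and 0 in KO, and Clic6, an intracellular chloride channel gene, at 148 and 131 in WT and 0 and 0 in KO. The log2 differences of Amer2, Slc44a3, Wtip and A830082K12Rik, also among the 14, ran from -6.30 to -5.71. With the receptor inhibited Thbd stood at 242 and 277 in WT and 0 and 1.84 in KO.

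Among the 10 with reads in KO alone under TGFβ, Gdf2, a circulating BMP ligand also known as BMP9, stood at 0 and 0 in WT and 68.9 and 55.5 in KO, and was 0 and 0 in WT and 18.1 and 17.4 in KO with the receptor inhibited. St6galnac3, a sialyltransferase gene, stood at 0 and 0 in WT and 68.9 and 66.4 in KO. Cyp2d34, a cytochrome P450 gene with close copies, stood at 0 and 0 in WT and 64.3 and 56.4 in KO. All 24 genes were called in the same direction with the receptor inhibited.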
